A study of Mus musculus with 20 samples.

Results

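Polyamine synthesis is represented here by 8 genes, chosen by symbol: Odc1, Amd1, Srm and Sms for synthesis, Azin1, Oaz1 and Oaz2 for control of ornithine decarboxylase, and Sat1 for catabolism. All 8 were present in the gene count table of 14924 genes and all 8 passed the filter on low counts, which left 14906 genes. The same 8 genes had counts at 3′ ends, and 1 of the 8, Sms, was listed with CRAC windows among 1304 protein coding HuD mRNA targets.

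Polyamines (putrescine, spermidine and spermine) are small cations that bind RNA and ribosomes, and proliferating cells depend on their synthesis. Ornithine decarboxylase (Odc1) makes putrescine, S-adenosylmethionine decarboxylase (Amd1) supplies the aminopropyl donor, and spermidine synthase (Srm) and spermine synthase (Sms) build the longer amines. Antizymes (Oaz1, Oaz2) bind ornithine decarboxylase and send it to the proteasome, and their own mRNAs are read through a frameshift that polyamines promote. The antizyme inhibitor (Azin1) is a decarboxylase relative without enzyme activity that binds antizyme, and spermidine/spermine acetyltransferase (Sat1) marks polyamines for export or breakdown. Several of these mRNAs are textbook examples of translational control.

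HuD (ELAVL4) is a neuronal RNA-binding protein of the ELAV family. The cells were NSC-34, a mouse hybrid of neuroblastoma and motoneuron-enriched embryonic spinal cord cells, in a Trex background that carries the Tet repressor, and the HuD group carried in addition a tetracycline-inducible, His-HA-tagged human HuD. In RNA-Seq (total RNA), POL-Seq (RNA of pooled polysomal sucrose gradient fractions) and 3′ end sequencing, HuD cells had received 2 µg/ml tetracycline for 48 h, and the labels give no treatment for the control cells. In CRAC, which maps crosslinked sites of a tagged protein on RNA, HuD and control Trex cells alike had received 10 µg/ml tetracycline for 24 h by the labels and methods, while the results text of the study names another inducer, dose and time. RNA-Seq and POL-Seq had 2 libraries of each cell type, 3′ end sequencing 3 of each, and CRAC 3 of each, pooled by the authors. Total RNA was likewise prepared from pooled gradient fractions, and the model is a cell line that overexpresses the protein.

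Gene counts summed to between 21296012 and 36284728 per library in RNA-Seq and POL-Seq, and to between 12986862 and 15751036 in 3′ end sequencing. In total RNA of control cells the neuronal markers Tubb3 (599 CPM, counts scaled to library size), Gap43 (341 CPM), Nefl (179 CPM) and Isl1 (40.9 CPM) were present, while Chat (0.524 CPM), Lhx3 (1.31 CPM) and Stmn2 (0.307 CPM) were nearly absent. Of the other lists, no microglial marker of 4 passed the filter, Gfap and Mag were under 1 CPM, and Slc1a2 and Pdgfra were near 24 CPM. Elavl4 counts were 2.55-fold higher in total and 2.25-fold higher in polysomal RNA of HuD cells (adjusted p = 0.0866 and 0.282, edgeR). At 3′ ends the direction was opposite, with 64.9 ± 22.9 CPM in control libraries and 46.1 ± 12.8 CPM in libraries labelled HuD (SD, n = 3). The 3′ end of the transgene is not given in the sources used here, so these counts do not check the induction.

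The level of the 8 mRNAs was compared per length first, as FPKM (counts scaled to gene length and library size) in total RNA of control cells. Srm stood at 203 ± 28.8, Oaz1 at 179 ± 18.8 and Odc1 at 163 ± 11.5 FPKM (SD, n = 2), above 98.6%, 98.2% and 98.0% of the genes. In single libraries Srm had 183 and 223, Oaz1 192 and 166 and Odc1 155 and 171 FPKM, so neighbours in this order overlapped. Azin1 followed at 61.3 ± 5.97, Amd1 at 48.3 ± 0.595, Oaz2 at 31.8 ± 2.74 and Sms at 22.02 ± 2.04 FPKM, with no overlap between neighbours. Sat1, the only catabolic gene among them, was lowest at 4.51 ± 0.059 FPKM. The order within the leading group depends on the length used. Per length of the main transcript, in place of all exons of the gene, Oaz1 was first with 438 FPKM, followed by Odc1 with 251 and Srm with 243. Srm, Odc1, Oaz1, Azin1, Amd1, Oaz2, Sms and Sat1 thus span abundant to modest mRNAs, and their counts per library ranged from 247 (Sat1) to 20349 (Odc1).

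**Figure D1:**
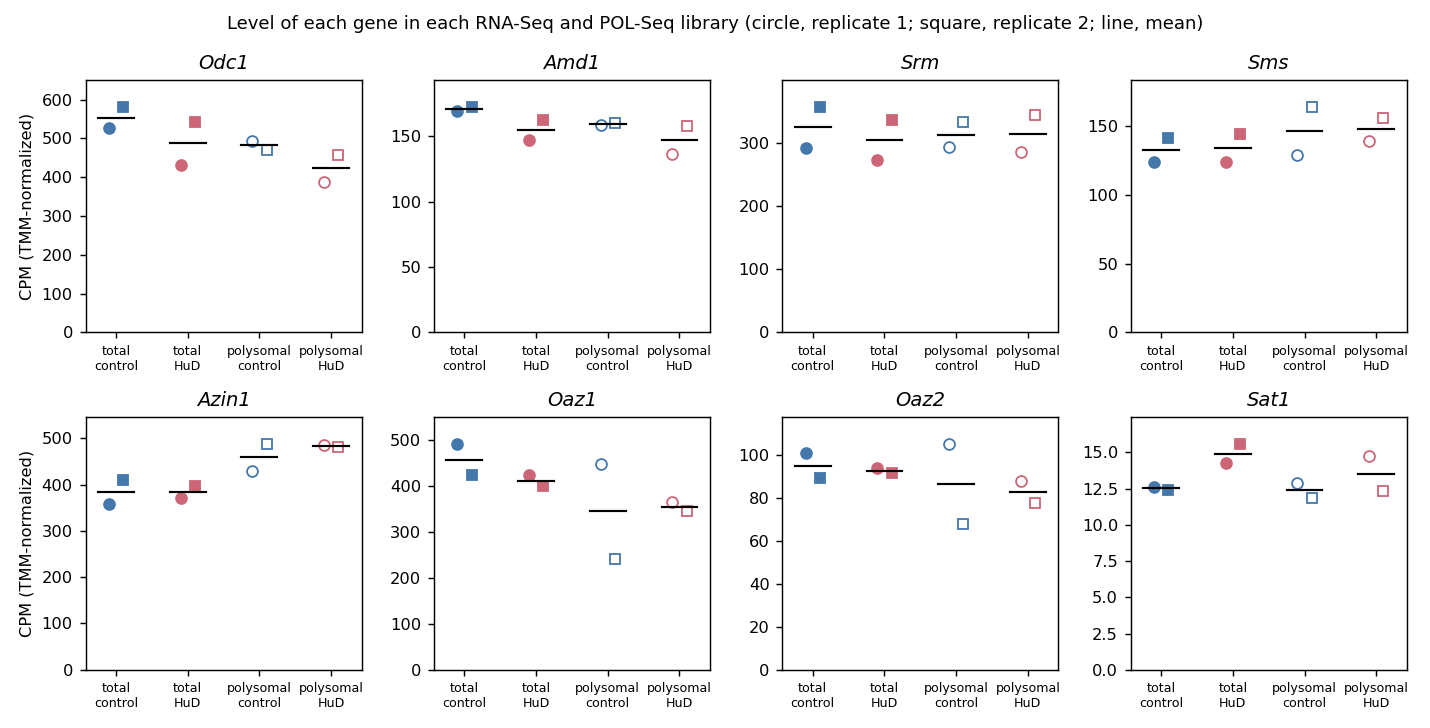
Level of the 8 genes (CPM after TMM normalization, vertical axes from 0) in each library of total RNA (filled) and polysomal RNA (open) from control (blue) and HuD cells (red), with circles for replicate 1, squares for replicate 2 and lines for the mean. Azin1 is higher in all 4 polysomal than in all 4 total RNA libraries, and the polysomal control library of replicate 2 is low for Oaz1 (242 CPM) and Oaz2 (67.7 CPM).

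Polysome association, the level in polysomal against that in total RNA, was examined first in control cells, where it describes translation without induced HuD. None of the 8 genes passed an adjusted p of 0.05 (smallest 0.462, edgeR quasi-likelihood test), where 0% of all genes were called higher and 0.174% lower. At an unadjusted p under 0.05, 1 of the 8 was higher (Azin1) and none lower, against 4.45% and 6.25% of all genes. The members' median log2 difference was −0.08, beside 0.01 over all genes tested, with 2 positive and 6 negative values. The 2 polysomal and the 2 total libraries did not overlap for Azin1 (higher) and for Odc1 and Amd1 (lower), where 18.9% of all genes were higher and 20.1% lower in this sense.

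Azin1, the antizyme inhibitor, had the highest polysome association of the set in both cell types. In control cells its level was 430 and 487 CPM in polysomal RNA and 357 and 410 CPM in total RNA. The groups did not overlap, and the log2 difference was 0.26 (SE 0.10, 95% interval 0.03 to 0.49, adjusted p = 0.462, edgeR). In HuD cells it had 485 and 482 CPM in polysomal RNA and 372 and 398 CPM in total RNA. Here too each polysomal library lay above each total RNA library, with a log2 difference of 0.33 (SE 0.10, 95% interval 0.10 to 0.56, adjusted p = 0.236, edgeR), above 95.9% of the genes. The value in control cells was 0.16 without the polysomal control library of replicate 2 and 0.35 without that of replicate 1, where it passed the threshold (adjusted p = 0.0466).

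With the mean of the control and HuD differences, a comparison chosen after the data were seen, Azin1 was 0.29 higher on the log2 scale in polysomal RNA (SE 0.07, 95% interval 0.13 to 0.46, adjusted p = 0.0715, edgeR). All 4 polysomal libraries (430 to 487 CPM) lay above all 4 total RNA libraries (357 to 410 CPM), as for 6.25% of all genes, and no member was lower without overlap, beside 8.76% of all genes. Azin1 was also the only member with an unadjusted p under 0.05, where 9.53% of all genes were higher and 11.8% lower. In this comparison edgeR called 0.429% of genes higher and 1.93% lower, and Azin1 was not among them. DESeq2 gave an adjusted p of 0.00797 for it, and called 769 genes in all.

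Odc1, the enzyme that antizyme targets and that the inhibitor spares, had values in the opposite direction. In control cells it had 494 and 470 CPM in polysomal RNA, below the 526 and 582 CPM in total RNA. The log2 difference was −0.20 (SE 0.13, 95% interval −0.49 to 0.09, adjusted p = 0.535, edgeR). In HuD cells the polysomal libraries (388 and 457 CPM) overlapped with those of total RNA (432 and 542 CPM), with a log2 difference of −0.21 (adjusted p = 0.585). Over both cell types together the difference was −0.20 with an interval that reached 0.00 (adjusted p = 0.236).

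The counts of Azin1 over those of Odc1 within a library need no normalization between libraries, and were compared for this reason after the data were seen. In total RNA the ratio was 0.679 and 0.705 in control and 0.859 and 0.733 in HuD cells. In polysomal RNA it was 0.871 and 1.04 in control and 1.25 and 1.05 in HuD cells. Every polysomal library thus had a higher ratio than every total RNA library, although the closest values were 0.871 and 0.859. Both genes were paired after their opposite differences in these libraries were seen, so this separation is no separate support for them. The share of other gene pairs that separate in this way was not computed. Between libraries of the same number the ratio was 1.28-, 1.47-, 1.45- and 1.44-fold higher in polysomal RNA.

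**Figure D2:**
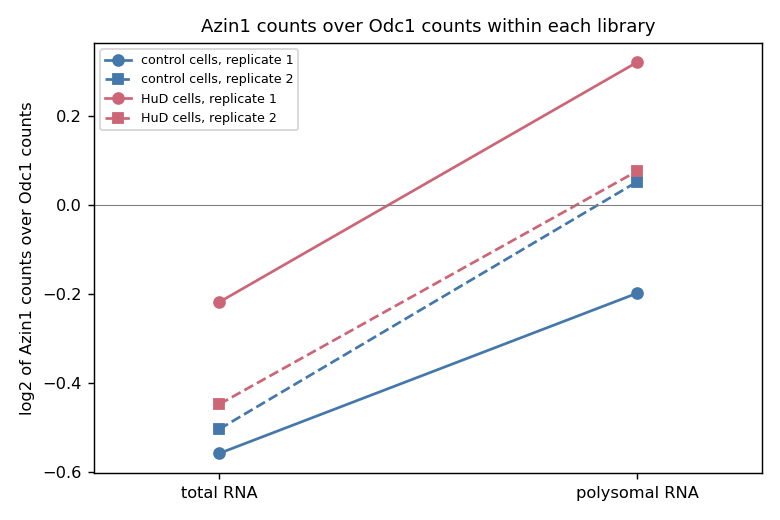
Counts of Azin1 over counts of Odc1 (log2, vertical axis) in total and polysomal RNA of control (blue) and HuD cells (red), with lines between libraries of the same replicate number. The ratio is higher in polysomal RNA along all 4 lines, by 1.28- to 1.47-fold.

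Both antizymes had negative estimates in both cell types, and neither was called. Oaz1 had 448 and 242 CPM in polysomal RNA of control cells, against 492 and 424 CPM in total RNA. In HuD cells it had 366 and 346 CPM in polysomal and 424 and 401 CPM in total RNA. Oaz1 was therefore lower in both polysomal libraries of HuD cells without overlap (as 24.5% of all genes were), but with overlap in control cells. The log2 differences were −0.41 (SE 0.23, adjusted p = 0.496) in control and −0.21 (SE 0.23, adjusted p = 0.771) in HuD cells. Oaz2, the second antizyme, had 105 and 67.7 CPM in polysomal and 101 and 89.3 CPM in total RNA of control cells. In HuD cells it had 87.9 and 77.7 CPM in polysomal and 93.8 and 91.4 CPM in total RNA, again without overlap. Its log2 differences were −0.13 (adjusted p = 0.757) and −0.16 (adjusted p = 0.777).

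The polysomal control library of replicate 2, which also had the fewest reads, stood apart. Its log2 CPM was 0.89 below that of replicate 1 for Oaz1, a value lower than for all but 0.897% of genes with at least 10 CPM, and 0.63 below for Oaz2. The median of this difference was −0.21 over 864 genes whose main transcript is shorter than 1200 nt and 0.06 over 8654 longer genes, and its SD over genes was 0.284, against 0.132 to 0.207 in the other pairs of replicates. The main transcript of Oaz1 has 1044 nt and that of Oaz2 1843 nt, and the part of this pattern in the antizyme values was not tested. Without the library of replicate 1, so that replicate 2 stood alone and was assumed to vary like the other groups, 3 of the 8 genes were called in control cells: Azin1, Oaz1 with −0.92 (adjusted p = 0.00122, edgeR) and Oaz2 with −0.49 (adjusted p = 0.0213). That setting called 2145 genes in all. Without replicate 2 no member was called, and the log2 differences were −0.04 for Oaz1 and 0.14 for Oaz2. In HuD cells, whose libraries are not touched, the signs of both genes were negative in every pair.

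Reads that fit Oaz1 and a copy equally well cannot be assigned uniquely. The pseudogene Oaz1-ps was counted at 0.577 to 2.16 CPM, and Oaz1 counts are uncertain to the extent that such reads were lost. The same holds for Amd1, whose main transcript shares 93.1% of its 25-mers with the near-identical gene Amd2.

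None of the remaining genes was called. Amd1 had 159 and 160 CPM in polysomal RNA of control cells against 170 and 173 CPM in total RNA, with a log2 difference of −0.10 (adjusted p = 0.651), and −0.07 in HuD cells with overlap (137 and 158 CPM against 148 and 162 CPM). Srm had 293 and 333 CPM against 292 and 357 CPM in control cells, and 286 and 344 CPM against 272 and 336 CPM in HuD cells. Its log2 differences were −0.05 (95% interval −0.38 to 0.27) and 0.05 (−0.27 to 0.37). Sms had 129 and 164 CPM in polysomal and 124 and 141 CPM in total RNA of control cells, and 139 and 156 CPM against 124 and 144 CPM in HuD cells. Its log2 differences were 0.14 in control and 0.14 in HuD cells (adjusted p = 0.653 and 0.744), with overlapping libraries. The value in control cells was −0.043 without the polysomal control library of replicate 2 and 0.31 without that of replicate 1. Sat1 had 12.9 and 11.9 CPM against 12.6 and 12.4 CPM in control cells, and 14.7 and 12.3 CPM against 14.3 and 15.6 CPM in HuD cells. Its log2 differences were −0.01 and −0.14 (adjusted p = 0.971 and 0.704).

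**Figure D3:**
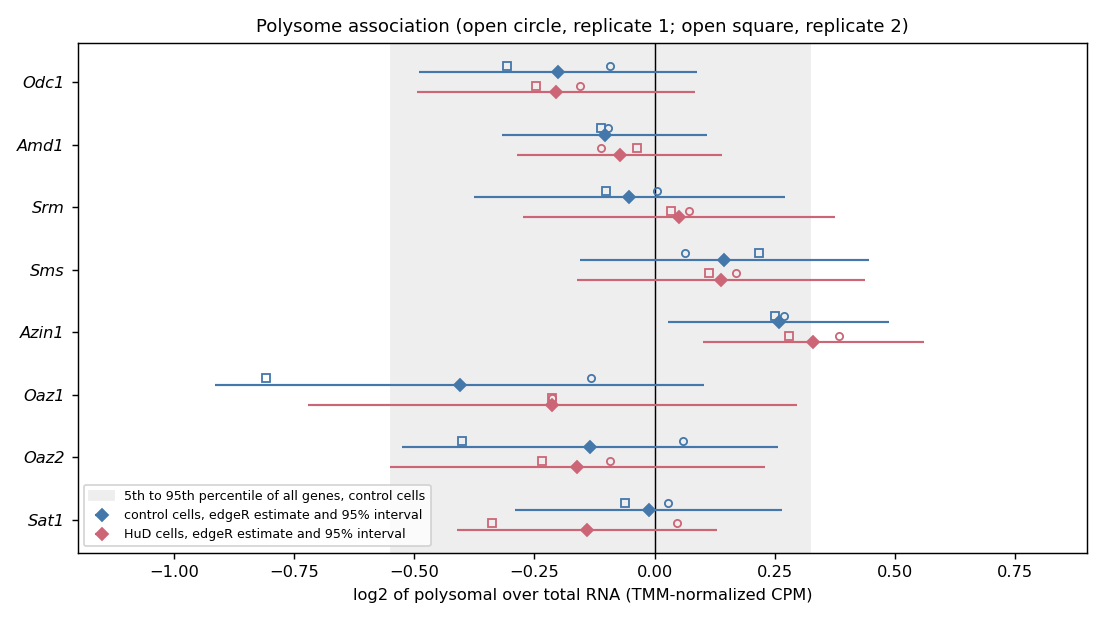
Log2 of polysomal over total RNA for the 8 genes in control (blue) and HuD cells (red), with diamonds for the edgeR estimate, lines for its 95% interval, open circles and squares for the libraries of replicate 1 and 2, and grey for the 5th to 95th percentile of all genes in control cells. The interval lies above 0 for Azin1 in both cell types (0.03 to 0.49 and 0.10 to 0.56) and spans 0 for the other genes.

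In HuD cells none of the 8 genes passed the threshold (smallest adjusted p = 0.236), beside 0.047% of all genes called higher and 0.49% lower. At an unadjusted p under 0.05, 1 of the 8 was higher (Azin1), against 4.85% of all genes, and none lower, against 7.59%. The median over the members was −0.11, and 0.01 over all genes. Libraries did not overlap for 1 gene in the higher direction, as for 25.3% of all genes, and for 2 in the lower direction, as for 24.5%.

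Genes with a similar course over the 8 libraries were sought for Odc1 and Azin1 among 9702 genes with at least 10 CPM. By Pearson r of log2 CPM, the genes most like Azin1 were Spred1 (r = 0.998), Scamp1 (r = 0.994) and Cops2 (r = 0.993), with polysomal to total log2 differences of 0.29, 0.28 and 0.34 in control cells and 0.38, 0.31 and 0.46 in HuD cells. For Odc1 they were Naa40 (r = 0.959), Akt1 (r = 0.958) and Tcf19 (r = 0.956), with −0.09, −0.12 and −0.15 in control cells and −0.16, −0.06 and −0.05 in HuD cells. The 8 points of each correlation are the libraries themselves and share their depth and normalization. The polysomal to total difference is part of the course that was matched, so likeness in it is in part given by the choice.

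The change of polysome association with HuD is the difference in translation efficiency (TE) between HuD and control cells. It addresses whether HuD alters the polysome association of these mRNAs relative to other mRNAs. Libraries were normalized to each other, so a shift shared by most mRNAs would not be seen. The paper reports, from polysome profiles, a rise in global translation efficiency with HuD. From RNA-Seq and POL-Seq it also reports genes with increased or decreased TE, found with edgeR. HuD targets were enriched among its genes with increased TE. The paper's text gives no threshold for these genes. Here no member changed at an adjusted p of 0.05 (all adjusted p = 1.00, edgeR interaction), and no gene of the table did either (0% in either direction). The gene calls in the paper were thus not reproduced at this threshold. At an unadjusted p under 0.05 none of the 8 was found, beside 0.409% of genes higher and 0.57% lower. The log2 difference in TE was 0.07 for Azin1 (95% interval −0.25 to 0.40), 0.00 for Odc1 (−0.41 to 0.40), −0.01 for Sms (−0.43 to 0.42) and 0.10 for Srm (−0.35 to 0.56). It was 0.03 for Amd1 (−0.27 to 0.33), 0.19 for Oaz1 (−0.53 to 0.91), −0.03 for Oaz2 (−0.58 to 0.52) and −0.13 for Sat1 (−0.52 to 0.26). The intervals thus leave room for changes in either direction. The polysomal to total ratio of the pairs did not overlap for Azin1 and Srm (higher in HuD cells), as for 18.6% of all genes. For Azin1 the log2 ratios were 0.27 and 0.25 in control and 0.38 and 0.28 in HuD cells. For Srm they were 0.01 and −0.10 in control and 0.07 and 0.03 in HuD cells. Without the polysomal control library of replicate 1 or 2 the difference of Oaz1 was 0.71 or −0.18, and that of Oaz2 was 0.33 or −0.30, none of them called.

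The level of the mRNAs with HuD was compared in total RNA, in polysomal RNA and at 3′ ends. The TE, total and polysomal comparisons share their libraries, while the 3′ end libraries are separate. In total RNA no member was called (adjusted p = 1.00), as was no gene of the table (0%). At an unadjusted p under 0.05 none of the 8 was found either, beside 1.78% of genes higher and 0.865% lower. The members' median log2 difference was −0.07, against 0.00 over all genes. Sat1 had 14.3 and 15.6 CPM in HuD and 12.6 and 12.4 CPM in control cells. These groups did not overlap, as for 15.1% of all genes, and the log2 difference was 0.25 (95% interval −0.02 to 0.53, adjusted p = 1.00, edgeR). Amd1 had 148 and 162 CPM in HuD cells, below 170 and 173 CPM in control cells (log2 −0.14, 95% interval −0.36 to 0.07), as 16.7% of all genes were lower without overlap. Odc1 had a log2 difference of −0.18 (95% interval −0.47 to 0.10) with overlap. The other values ranged from −0.15 (Oaz1) to 0.02 (Sms), with 0.00 for Azin1.

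In polysomal RNA the smallest adjusted p among the members was 0.969, and no gene of the table was called (0%). At an unadjusted p under 0.05 there was no member, beside 2.29% of genes higher and 1.89% lower. Odc1 (388 and 457 CPM in HuD against 494 and 470 CPM in control cells, log2 −0.19) and Amd1 (137 and 158 CPM against 159 and 160 CPM, log2 −0.11) were lower without overlap, as 14.6% of all genes were, and none was higher without overlap, beside 14.1%. The values of the others ranged from −0.06 (Oaz2) to 0.13 (Sat1). The value of Oaz1, 0.04, was 0.56 and called (adjusted p = 0.0330, edgeR) without the polysomal control library of replicate 1, and −0.33 without that of replicate 2. For Oaz2 the same settings gave 0.29 and −0.34, neither called.

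**Figure D4:**
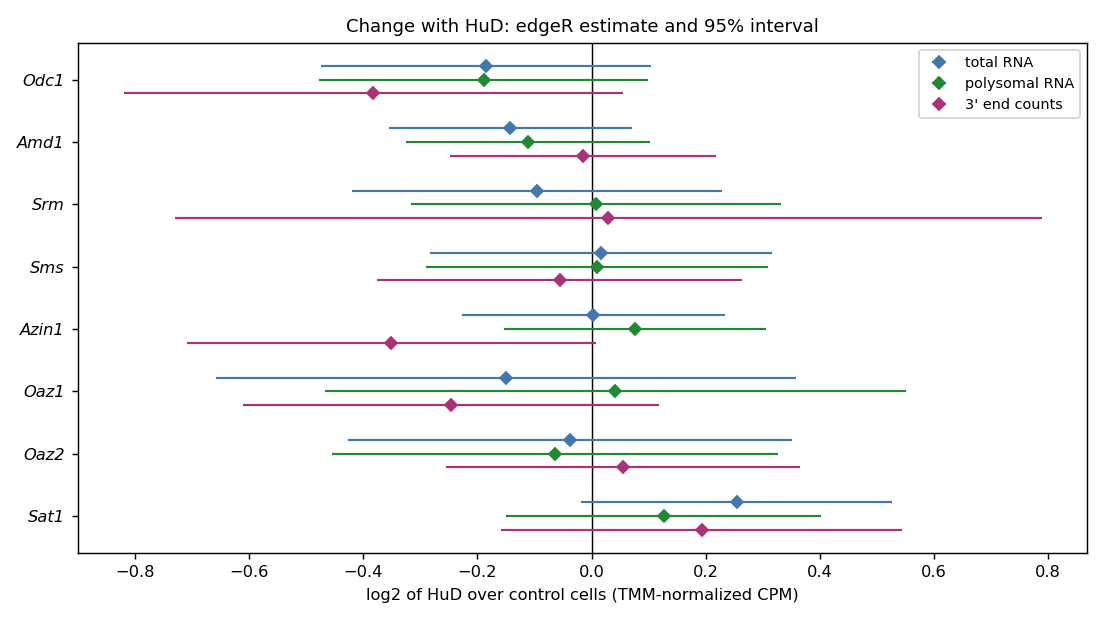
Log2 of HuD over control cells for the 8 genes in total RNA (blue), polysomal RNA (green) and 3′ end counts (purple), with the edgeR estimate and its 95% interval. All intervals span 0, and for Azin1 the 3′ end value (−0.35) lies apart from those in total (0.00) and polysomal RNA (0.08).

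At 3′ ends, 9621 genes were tested and no member passed the threshold (smallest adjusted p = 0.863), beside 0.0208% of genes called higher and 0.0312% lower. None had an unadjusted p under 0.05, beside 2.87% higher and 3% lower of all genes. With the replicate number as a block, which pairs these libraries, 3 of the 8 (Odc1, Azin1 and Oaz1) were lower at an unadjusted p under 0.05 and none higher, beside 10.1% and 8.64% of all genes. Odc1 had 6.75, 7.27 and 8.69 CPM in control libraries and 5.27, 5.76 and 6.37 CPM in libraries labelled HuD. Azin1 had 48.0, 50.2 and 48.0 CPM in control libraries and 43.1, 41.4 and 30.3 CPM in those labelled HuD. Both were lower without overlap, as 5.81% of all genes were, and no member was higher without overlap, beside 6.23%. These were log2 differences of −0.38 for Odc1 (95% interval −0.82 to 0.06, adjusted p = 0.882, edgeR) and −0.35 for Azin1 (−0.71 to 0.01, adjusted p = 0.863, edgeR). For Azin1 neither RNA-Seq (0.00) nor POL-Seq (0.08) had a difference of this size. Under the block the calls over all genes went from 5 to 217, and no member was among them (adjusted p = 0.109 for Azin1, 0.211 for Odc1 and 0.0963 for Oaz1, edgeR). Sat1 had 16.9, 18.3 and 19.9 CPM in control libraries and 22.4, 22.4 and 18.2 CPM in those labelled HuD (log2 0.19), with overlap. Oaz1 had 4377, 6373 and 5244 CPM in control libraries and 4143, 5245 and 4099 CPM in those labelled HuD (log2 −0.25), with overlap between groups and lower values in each of the 3 pairs. The values of the other 4 genes lay between −0.06 and 0.05.

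The 3′ end counts cover the members unequally. Odc1 had 1 listed end, with 71 to 137 counts per library, and its 7.57 CPM there stand against 554 CPM in total RNA, a ratio lower than that of all but 0.777% of 9399 genes. Srm, also with 1 end, had 15 to 37 counts, and 1.65 CPM against 325 CPM (percentile 0.0745). The 3′ end value of these abundant mRNAs therefore rests on few reads. Oaz1 had 3 listed ends within 6 nt of each other (chr10:80829284, 80829285 and 80829290 on GRCm38), where the same reads can count more than once, and the sum of 5331 CPM exceeds its level in total RNA 11.6-fold. Amd1 had 696 CPM and Amd2 642 CPM at their ends, whose last 200 nt share 96.6% of 25-mers, so their counts cannot be separated with confidence.

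Use of alternative 3′ ends was tested for the 3 members with several ends and no difference with HuD was called (adjusted p = 1.00 for Azin1, Oaz1 and Sms, edgeR diffSpliceDGE with Simes' method), where 0.0301% of 3317 genes were called. The test is void for Oaz1, whose ends lie so close that they can share reads, and the first 2 ends of Azin1 are also within 20 nt. With ends within 20 nt merged, Azin1 with 2 ends and Sms with 3 remained, again without a call (adjusted p = 1.00). Azin1 ended at chr15:38488238 in 51.7 ± 3.79% of its counts, at 38488241 in 7.52 ± 0.253% and at the proximal 38489454 in 40.8 ± 3.54% of control counts (SD, n = 3). In libraries labelled HuD these shares were 48.8 ± 2.87%, 8.72 ± 0.694% and 42.5 ± 3.56%. Sms ended at chrX:157445696 in 57.4 ± 1.64%, at 157458874 in 3.66 ± 0.534% and at 157465864 in 39.0 ± 1.68% of control counts, and in 57.5 ± 5.16%, 3.43 ± 1.37% and 39.0 ± 5.30% of counts labelled HuD. These are shares of the listed ends only. Both annotated genes extend further 3′, to chrX:157443855 for Sms and chr15:38487430 for Azin1. No end was listed there, so use of such longer 3′ UTRs was not tested.

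CRAC answers which of these mRNAs were crosslinked to HuD in the cells. Sms was the only member with a listed window, that is 1 of 8, beside 9.9% of 12953 protein coding genes with counts. Listing went with level, with 25.3% of 2630 genes at 100 CPM or more, 33.3% of 964 genes at 200 CPM or more and 41.2% of 318 genes at 400 CPM or more holding a window. Odc1, Oaz1, Azin1 and Srm, with 325 to 554 CPM in total RNA, had none. Among genes with a 3′ UTR of similar length the listed share was lower than at these levels. It was 5.48% for Odc1, 6.92% for Oaz1, 6.12% for Srm and 15.3% for Azin1. The share among genes alike in both level and length was not tested. The table lists only windows with at least 6 covering reads and 3 deletions, so fewer reads on these mRNAs would not be seen.

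The Sms windows are shown because they are the only listed windows in the set. The capitals mark the listed heptamer, with 11 nt of the spliced transcript on either side, 5′ to 3′, as DNA letters from GENCODE vM21 on GRCm38.
Sms 3′ UTR window, chrX:157445821-157445827, minus strand: gtttcagtagaCCTTTAAtttggacatgt
Sms coding sequence window, chrX:157461325-157461330 and 157461961, minus strand: gcggggatgttAATTTGGcagagagtgac

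The first window lies in exon 11, the last of transcript Sms-201, 313 nt after the last sense codon and 1966 nt before the end of the transcript. It was covered by 8 reads, 3 of them with a deletion, and by 0 reads in control cells. The second spans the junction of exon 5 and exon 6, with 1 base in the former and 6 in the latter, at codon 169 of 366. Its 7 covering reads had a deletion in all cases (100%), and control cells had 0 reads. Of 2598 windows in protein coding genes, 3.16% had a deletion in every read, and 5 of 2227 windows that could be placed crossed a junction. The authors' unadjusted p-values of 0.386 and 0.145 are above 0.05 for both windows. The heptamer of the second window occurs 3 times in Sms-201, and its letters also overlap the end of the first window. For comparison, by the region the authors listed, 92.2% of windows in protein coding genes lay in the 3′ UTR and 5.16% in the coding sequence.

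Coverage and deletions were summed over the windows of a gene. A read that covers several windows counts in each, and the sums grow with the number of windows. With a summed coverage of 15, Sms ranked 873rd of 1304 targets, and with 10 deletions 437th. The median target had a summed coverage of 27 and 7 deletions. CRAC values are pooled, carry no replicate error, and come without library totals, so their depth is unknown. The 3′ UTR window lies 125 nt upstream of the listed 3′ end with the most counts, at 157445696. The end at 157465864 held 39.0% of the counts at listed ends. Transcripts that end there stop 4539 genomic bases before the last base of the coding window and lack both windows.

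The mRNAs of the set differ in the features that bear on translation and on ELAV binding. Main transcripts of 5 of the 8 genes have an ATG upstream of the coding sequence, as have 50.1% of 12367 genes, with 4 in Sms, 3 in Azin1, 2 in Odc1, 2 in Sat1 and 1 in Amd1, and none in Oaz1, Oaz2 or Srm. The 5′ UTR measured 590 nt in Azin1, at or above the length in 94.1% of genes, and 489 nt in Odc1, against a median of 170 nt over all genes. The 5′ UTR of Amd1 had 42.1% GC, at or above that of only 1.57% of genes. Azin1 (2934 nt), Sms (2282 nt) and Amd1 (1871 nt) had long 3′ UTRs with 11, 7 and 7 ATTTA motifs (searched on the sense strand, overlaps allowed), and those of Oaz1 (286 nt) and Sat1 (182 nt) had none. Among genes with a 3′ UTR of similar length (0.8 to 1.2 times) the motif was present in 95.5% for Azin1, 92.5% for Sms and 88.3% for Amd1. It was present in 85.4% of genes with CRAC windows and 63.7% of genes without, whose median 3′ UTRs were 1566.5 and 923 nt. Azin1, with the most of these motifs in the set, was not listed, and a match is no evidence of binding.

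Of 29 further genes of polyamine supply, catabolism, transport and use, 26 were tested and none passed an adjusted p of 0.05 in any comparison of RNA-Seq and POL-Seq, and neither did the 22 tested at 3′ ends. At an unadjusted p under 0.05, 1 was higher on polysomes in control cells (Atp13a3) and 4 in HuD cells (Atp13a3, Adi1, Mat2b and Eif5a2, named after their values were seen), with none lower. Of all genes, 4.45% were higher and 6.25% lower in control cells, and 4.85% and 7.59% in HuD cells. The median log2 difference of the 26 genes was 0.00 in control and 0.07 in HuD cells, against 0.01 in both over all genes. With HuD, 1 was higher in polysomal RNA (Slc3a2, log2 0.20), none in total RNA, and 1 lower at 3′ ends (Mat2b, log2 −0.28), at an unadjusted p, where 2.29%, 1.78% and 3% of all genes were found in these directions.

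CRAC windows were listed for 4 of the 29 genes, beside 9.9% of all protein coding genes with counts and 25.3% of those at 100 CPM or more. Mat2a, which makes S-adenosylmethionine, had 4 windows with a summed coverage of 128. Slc3a2, the heavy chain of amino acid transporters, had 2 windows with a sum of 189. Atp13a3, linked to polyamine transport, had 5 windows with a sum of 101, and Slc7a1, a transporter of arginine and ornithine, 1 window with a coverage of 11. Atp13a3 had 212 and 245 CPM in polysomal and 172 and 198 CPM in total RNA of control cells, without overlap (log2 0.31, SE 0.11, adjusted p = 0.462, edgeR), and 240 and 230 CPM against 194 and 176 CPM in HuD cells (log2 0.35, adjusted p = 0.231). Mat2a had polysomal to total log2 differences of −0.15 in control and −0.31 in HuD cells (adjusted p = 0.669 and 0.419). Slc3a2 (−0.01 and 0.07) and Slc7a1 (0.10 and 0.14) lay near 0. Summed coverage on the supply and transport genes Mat2a, Slc3a2 and Atp13a3 thus exceeded the 15 of Sms, and that of Slc7a1 did not. The sums depend on the number of windows, which differs between these genes.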

How the data were processed

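RNA-Seq and POL-Seq (8 libraries), 3′ end sequencing (6) and CRAC (6, pooled) of NSC-34 cells were analysed. Read counts per gene of total and polysomal RNA were deposited without normalization, made by the authors with STAR 2.5.3a on GRCm38.p4 with the Gencode M6 annotation. The strand setting of these counts is not given in the sources used here. The deposited 3′ end values are counts of reads that begin within 10 nt of known polyadenylation sites. For CRAC the authors aligned reads with TopHat 2.0.14, pooled replicates, and deposited the coverage of each window as a signal in reads, counts of deletions, an unadjusted combined p-value and a score against a positional weight matrix.

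Lines with the same position were reduced to 1 window, and positions were shifted by 2 nt on the minus strand so that the transcript matched the listed letters. The tests used edgeR 4.0.16 under R 4.3.3 with TMM, filterByExpr, 4 group means over 8 libraries and a separate fit for 6 3′ end libraries, a quasi-likelihood F-test and Benjamini-Hochberg correction over all genes at 0.05. Results are log2 differences with SE. The main transcript is the one with the longest coding sequence in GENCODE vM21. Counts at unique ends were summed per gene. DESeq2 1.42.0, another normalization, no filter, a replicate block, merged ends and leaving out each library were alternatives. The edgeR test of polysomal against total RNA in control cells was tried on simulated data with the same spread for all genes. The other procedures were not simulated. Figures were drawn with matplotlib 3.10.9.

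The members and lists were chosen with earlier results of these data known. Named by rule are all members, pathway genes with CRAC windows, and the 3 genes most like Odc1 and Azin1. Adi1, Mat2b and Eif5a2, markers and read-sharing copies are named besides. Replicates are described as biological, and with 2 per group SDs rest on n = 2. In 3′ end libraries, deviations from group means correlated between same-numbered libraries (r = 0.415, 0.679 and 0.535), which pairs them by number. Counts limit precision least for Odc1 and most for Sat1 and for 3′ ends of Srm.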

Additional observations from a re-analysis of the deposited data

How the results depend on the processing

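Over 232 values of single genes under other settings, 225 kept direction and side of the threshold, 2 passed it (Azin1, mean of both cell types, under DESeq2 and under the block) and 5 changed sign, each with a size near 0: Srm in the mean comparison was 0.00290 with another normalization, 0.00320 with DESeq2 and 0.00245 with the block, Sms in the change of TE was 0.000444 with the block, and Srm at 3′ ends was −0.0125 with the block. In the mean comparison, chosen after the data were seen, 1 member was called under DESeq2. No CRAC window on a member remained with the authors' p-value under 0.05 (0 of 2).

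With the replicate number as a block in RNA-Seq and POL-Seq, where 2 pairs share only a number (correlations of deviations 0.279 to 0.566), 1 member was called in the mean comparison (Azin1, adjusted p = 0.0130) and none in the others, and Azin1 in HuD cells had an adjusted p of 0.0517. The calls over all genes in the mean comparison went from 351 to 1828, from 26 to 41 in control cells and from 80 to 416 in HuD cells. The block changed no other call of a member.

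Leaving out each library gave 432 values of single genes, of which 372 kept direction and side of the threshold, 7 passed it and 53 changed sign. All 7 passed without the polysomal control library of replicate 1, and the lone library was assumed to vary like the other groups. Members called ranged from 0 to 3 for polysomal against total RNA in control cells and in the mean comparison, and from 0 to 1 for HuD against control in polysomal RNA. Log2 ranges of the genes that changed sign were, for polysomal against total RNA in control cells, −0.49 to 0.14 for Oaz2, −0.075 to 0.034 for Sat1, −0.043 to 0.31 for Sms and −0.19 to 0.100 for Srm. In HuD cells they were −0.18 to 0.033 for Amd1 and −0.092 to 0.21 for Srm, and for the mean −0.072 to 0.078 for Srm. For the change of TE they were −0.083 to 0.13 for Amd1, −0.030 to 0.17 for Azin1, −0.18 to 0.71 for Oaz1, −0.30 to 0.33 for Oaz2, −0.16 to 0.17 for Odc1, −0.17 to 0.18 for Sms and −0.049 to 0.26 for Srm. With HuD in total RNA they were −0.093 to 0.11 for Azin1, −0.12 to 0.053 for Oaz2, −0.098 to 0.12 for Sms and −0.25 to 0.057 for Srm. In polysomal RNA they were −0.012 to 0.18 for Azin1, −0.33 to 0.56 for Oaz1, −0.34 to 0.29 for Oaz2, −0.011 to 0.25 for Sat1, −0.15 to 0.20 for Sms and −0.13 to 0.13 for Srm. At 3′ ends they were −0.045 to 0.0097 for Amd1, −0.051 to 0.15 for Oaz2, −0.15 to 0.025 for Sms and −0.39 to 0.25 for Srm. The cause of these changes was not tested.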
